A study of Bos taurus with 7 samples.

Results

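Glycosyltransferases build the sugar chains of glycoproteins and glycolipids, many of them in the Golgi. Each typically adds 1 kind of sugar, often in 1 kind of linkage. The set described here holds every array gene whose name in the scanner files begins with the root of 13 families of chain-building enzymes: the N-acetylgalactosaminyl, N-acetylglucosaminyl, galactosyl, sialyl and fucosyl transferases. This gave 83 genes of 14964 on the array, each read by a single probe, and 60 of them were bright enough to be tested among 12570 tested genes. Names are those of the array design. In RefSeq the probe named FUT5 now reads FUT6, B3GNT1 is B4GAT1, GALNTL1 is GALNT16, GALNTL2 is GALNT15 and GALNTL4 is GALNT18. The gene named WBSCR17 on the array is now GALNT17 and lies outside the set by its array name.

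RNA came from the rumen epithelium of 7 Holstein calves, measured on 1 single-colour array per calf. The forage group (HAY, calves 9, 10 and 13, n = 3) received forage, and the control group (CON, calves 8, 11, 12 and 14, n = 4) received none. The design text places the division of the calves 3 weeks after weaning. The series concerns forage, calf starter and rumen pH around weaning, and the comparison asks how the epithelium differs with forage.

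A terminal chain is built in steps. B4GALT enzymes add galactose to N-acetylglucosamine, B3GNT enzymes extend that galactose into longer chains, and ST3GAL, ST6GAL or FUT enzymes cap it with sialic acid or fucose. B4GALNT2 works last: it adds N-acetylgalactosamine (GalNAc) to a galactose that already carries alpha-2,3-linked sialic acid, which makes the Sda (Cad) blood group structure. The same sialylated chain can instead be fucosylated to sialyl Lewis x, and the bare galactose can instead take fucose from FUT1 or FUT2 or sialic acid from ST6GAL1. Its donor, UDP-GalNAc, is shared with the GALNT enzymes that start mucin-type O-glycans.

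The values rest on probes of 60 bases. The probe of B4GALNT2 and those of 4 relatives with differing values are shown because each gene's reading comes from that stretch alone. They were picked among those of the 11 genes described most closely for having a forward reading frame free of stop codons. They are written 5′ to 3′, all in lower case since no part is marked.
B4GALNT2: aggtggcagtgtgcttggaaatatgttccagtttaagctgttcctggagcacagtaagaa
B4GALNT3: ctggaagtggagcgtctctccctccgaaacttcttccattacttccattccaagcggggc
B4GALT1: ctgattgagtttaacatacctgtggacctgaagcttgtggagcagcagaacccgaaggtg
B4GALT5: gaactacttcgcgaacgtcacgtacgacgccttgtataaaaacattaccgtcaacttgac
ST8SIA5: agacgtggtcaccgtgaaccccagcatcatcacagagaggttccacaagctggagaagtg
The B4GALNT2 probe lies on the minus strand of chromosome 19 from 38026700 to 38026759 of UMD_3.1, the build the files name. The B4GALNT3 probe lies on the plus strand of chromosome 5 from 107934353 to 107934412, B4GALT1 on the minus strand of chromosome 8 from 76203023 to 76203082 and B4GALT5 on the minus strand of chromosome 13 from 78464458 to 78464517. The ST8SIA5 probe, on the minus strand of chromosome 24 from 46885727 to 46886960, is placed over a stretch longer than itself. Whether a probe lies in coding sequence or a UTR was not determined here. The B4GALNT2 probe shares no run of 12 bases with another probe of the 83 and such a run with 3 of the other probes among 15008.

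Values below are log2 signals on a scale where 0 is the 75th percentile of each array. They compare calves for 1 probe and do not rank genes by level. Differences are HAY minus CON, tested with limma over all 12570 genes. A probe is called dim where the scanner software did not find it well above background.

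B4GALNT2 was lower in every forage calf than in every control calf, with nothing in between. The scanner's processed signal in forage calves 9, 10 and 13 came to 23.9, 27.0 and 23.2 intensity units. The control calves 8, 11, 12 and 14 gave 509, 649, 772 and 600.4. On the log2 scale the HAY calves stood at -6.30, -6.12 and -6.56 and the CON calves at -1.86, -1.53, -0.98 and -1.71. The HAY signals were faint but measurable. The probe was well above background on all 7 arrays, and the lowest signal so classed on any array lay between 9.02 and 12.2 units. The difference was -4.81 (SE 0.23, limma adjusted p = 0.000815). B4GALNT2 was the 1 gene of the 60 tested past the adjusted threshold of 0.05, and also the 1 gene of all 12570 tested to pass it (0.00796%). It kept that call in 18 of 18 alternatives and had the smallest p of all genes in 17 of them, the exception being the fit without calves 8 and 13. The 18 alternatives, here and below, are not independent, and several leave the difference of a gene with 1 probe unchanged. Normexp background correction with an offset of 50 units gave a smaller difference, -3.12. Such an offset shrinks log2 differences of faint signals by construction.

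**Figure D1:**
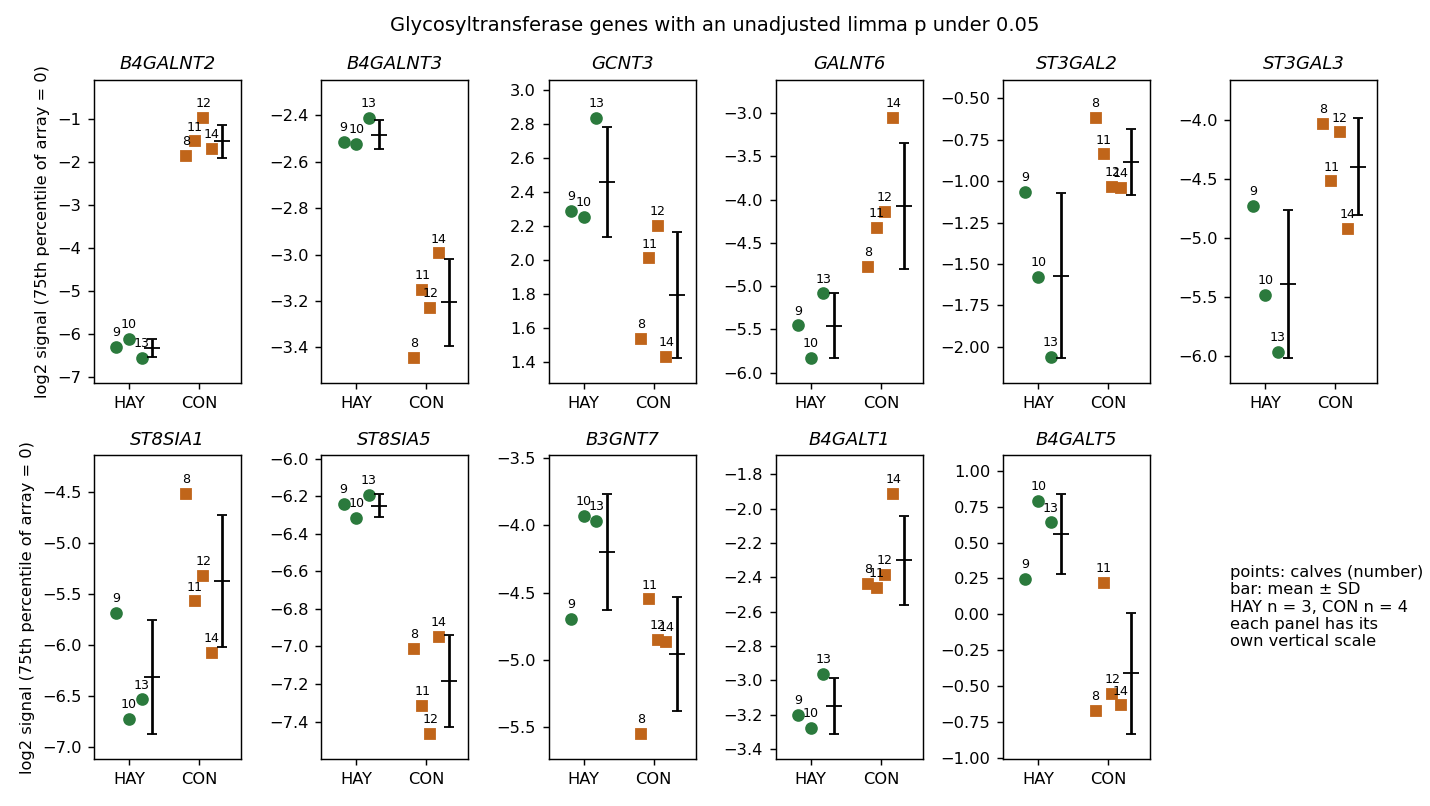
Log2 signal (vertical axis, the 75th percentile of each array being 0) of the 11 glycosyltransferase genes with an unadjusted p under 0.05, 1 panel per gene with its own scale; points are calves with their numbers and bars are the mean ± SD. B4GALNT2 lies between -6.56 and -6.12 in HAY and between -1.86 and -0.98 in CON, and the other 10 genes differ by less than 1.5 log2 units.

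Among the other genes of the set, differences were smaller than that of B4GALNT2 and ran both ways. The counts below take in all 60 tested genes. With an unadjusted p under 0.05 stood 11 of the 60 (18.3%, against 14.0% of all tested genes), 5 higher in HAY (8.33% against 6.79%) and 6 lower (10.0% against 7.17%), B4GALNT2 included. Groups without overlap were found for 9 (15.0%, against 11.8% of all genes), 5 higher in HAY (8.33% against 6.55%) and 4 lower (6.67% against 5.30%). Mean values were higher in HAY for 34 (56.7% against 54.5%) and lower for 26 (43.3% against 45.5%), and with normexp this split was 26 and 34. A difference of at least 2-fold was seen for 4, B4GALNT2, GALNT6, GALNT8 and GALNTL1 (6.67% against 6.63%). With normexp, whose offset shrinks differences of faint signals, GALNT6 differed by -0.83 and GALNT8 by -0.69, both under 2-fold. The median difference was 0.07 over the 60 and 0.03 over all genes, and the median SD within groups was 0.33 and 0.27. With signs dropped, the median difference was 0.27 over the 60 and 0.21 over all genes. These shares were near those of the whole array.

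**Figure D2:**
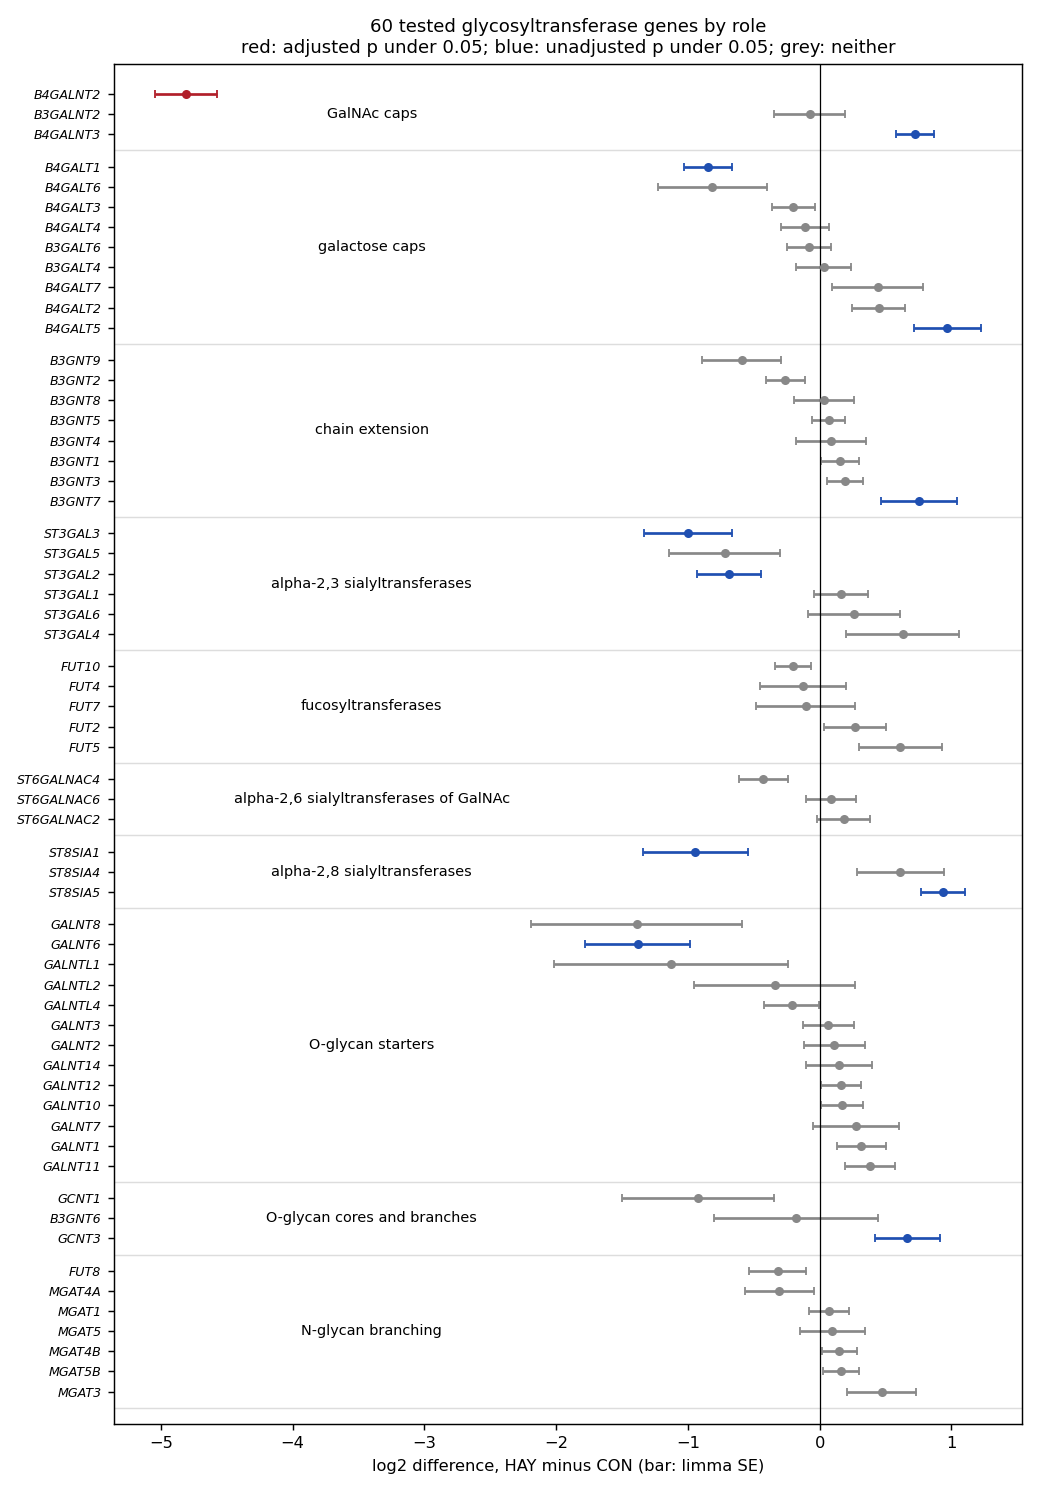
Log2 difference HAY minus CON (horizontal axis) with its limma SE for the 60 tested genes, grouped by the step each enzyme performs. B4GALNT2 stands at -4.81 and the others between -1.39 and 0.97.

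The set held 4 further enzymes that add GalNAc from the same donor to the end of a chain: B4GALNT1, B4GALNT3, B3GALNT1 and B3GALNT2. B4GALNT3, which adds GalNAc to N-acetylglucosamine and so makes LacdiNAc on a different acceptor, had higher values in forage calves. It stood at -2.51, -2.52 and -2.41 in HAY calves 9, 10 and 13 and at -3.45, -3.15, -3.23 and -3.00 in CON calves 8, 11, 12 and 14. Every HAY calf was above every CON calf, and HAY was 1.65-fold higher (difference 0.72, SE 0.15, limma adjusted p = 0.181). An unadjusted p under 0.05 held in 18 of 18 alternatives. B4GALNT2 and B4GALNT3 thus had values of opposite direction. B3GALNT2, which acts on the glycan of dystroglycan, had a difference of -0.08 (SE 0.27). B4GALNT1, the ganglioside GM2 synthase, was dim on all 3 HAY arrays and above background on 2 of 4 CON arrays. Its HAY values, -9.25 to -8.71, lay below its CON values, -7.85 to -7.18. As 2 of the 4 CON arrays were dim too, no bound on the fold is given, and there was no test. B3GALNT1, which makes globoside, was dim on all 7 arrays. Its HAY values, -8.87 to -7.87, lay above its CON values, -9.77 to -9.06. Values this faint are not read as a difference.

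The enzymes that lay down the galactose of the acceptor split into higher and lower members. B4GALT1, the main galactosyltransferase of N-acetyllactosamine and a part of lactose synthase, was at -3.20, -3.28 and -2.96 in HAY calves 9, 10 and 13. In CON calves 8, 11, 12 and 14 it was at -2.44, -2.46, -2.39 and -1.91. Every HAY calf was below every CON calf and HAY was 1.80-fold lower (difference -0.85, SE 0.18, limma adjusted p = 0.210), with an unadjusted p under 0.05 in 18 of 18 alternatives. B4GALT5, which makes lactosylceramide, ran the other way. Its values were 0.25, 0.79 and 0.64 in HAY calves 9, 10 and 13, against -0.67, 0.22, -0.56 and -0.63 in CON calves 8, 11, 12 and 14. HAY calf 9 and CON calf 11 were nearly level, and the groups did not overlap (1.96-fold higher in HAY, difference 0.97, SE 0.26, limma adjusted p = 0.234).

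The other galactosyltransferases did not pass an unadjusted p of 0.05. B4GALT6, the second lactosylceramide synthase, had a difference of -0.81 (SE 0.42) and was above background on 2 of 3 HAY arrays. B4GALT2 had one of 0.45 (SE 0.20), with no overlap between groups. B4GALT3, B4GALT4 and B4GALT7, the last an enzyme of the proteoglycan linker, stood at -0.20, -0.11 and 0.44. B3GALT4 and B3GALT6 were at 0.03 and -0.08, B3GALT1 and B3GALT5 were dim on all 7 arrays, and B3GALT2 was above background on 1 HAY and 1 CON array. In all, 9 of 12 galactose-capping genes were tested, 4 with higher and 5 with lower values.

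The sialyltransferases that prepare the acceptor of B4GALNT2 did not move as one. ST3GAL3, ST3GAL4 and ST3GAL6 act on the galactose of N-acetyllactosamine. ST3GAL3 was at -4.73, -5.48 and -5.97 in HAY calves 9, 10 and 13 and at -4.03, -4.52, -4.10 and -4.92 in CON calves 8, 11, 12 and 14. HAY calf 9 lay within the control range (difference -0.999, SE 0.34, limma adjusted p = 0.287). ST3GAL4 had a difference of 0.63 (SE 0.43), with the 4 CON calves spread from 0.86 to 2.75 around the HAY range of 2.03 to 2.25. ST3GAL6 had one of 0.26 (SE 0.35).

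ST3GAL2, which sialylates core 1 O-glycans and gangliosides, was at -1.07, -1.58 and -2.06 in HAY calves 9, 10 and 13. In CON calves 8, 11, 12 and 14 it was at -0.62, -0.84, -1.03 and -1.04. The groups did not overlap by a narrow margin, HAY calf 9 lying just below CON calf 14 (difference -0.69, SE 0.24, limma adjusted p = 0.300). ST3GAL1, the other core 1 enzyme, had a difference of 0.17 and ST3GAL5, the ganglioside GM3 synthase, one of -0.72 (SE 0.42). All 6 ST3GAL genes were above background on every array, 3 with higher and 3 with lower values.

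Enzymes that compete for the same chain showed no difference past the unadjusted threshold. Of the fucosyltransferases that act on N-acetyllactosamine chains, among them the makers of sialyl Lewis x, the probe named FUT5 was at 5.68, 6.10 and 5.46 in HAY calves 9, 10 and 13 and at 4.92, 5.65, 5.50 and 4.46 in CON calves 8, 11, 12 and 14. The groups overlapped (difference 0.61, SE 0.31, limma adjusted p = 0.420). FUT4 differed by -0.13 (SE 0.33) and FUT7, the leukocyte enzyme, by -0.10 (SE 0.38), above background on 2 of 3 HAY and 2 of 4 CON arrays. FUT9 was dim on all 7 arrays. FUT2, the secretor enzyme that fucosylates the galactose B4GALNT2 would otherwise use, differed by 0.27 (SE 0.23), while FUT1, its counterpart in red cell precursors, was dim on all 7 arrays. FUT10 differed by -0.20 (SE 0.14) and FUT11 was dim throughout. ST6GAL1 and ST6GAL2, which place alpha-2,6-linked sialic acid on that galactose, were each above background on 1 HAY and 1 CON array and were not tested.

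Chain extension showed 1 member past the unadjusted threshold. B3GNT7, linked to keratan sulfate chains, was at -4.70, -3.93 and -3.97 in HAY calves 9, 10 and 13 and at -5.55, -4.55, -4.85 and -4.87 in CON calves 8, 11, 12 and 14. HAY calf 9 lay below CON calf 11 (difference 0.76, SE 0.29, limma adjusted p = 0.321). B3GNT9 differed by -0.59 (SE 0.30), B3GNT2, the main poly-N-acetyllactosamine enzyme, by -0.26 (SE 0.15) and B3GNT3 by 0.19 (SE 0.14). The remaining genes, B3GNT1, B3GNT4, B3GNT5 and B3GNT8, lay between 0.03 and 0.15. All 8 were above background on every array. B3GNT1, now B4GAT1, is counted here by its array name only.

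B4GALNT2 was then set against each measurable partner within the same calf. Of 29 enzymes listed as sharing its substrates or acting beside it, 26 were on the array and 21 bright enough, and the log2 ratio of B4GALNT2 to each was compared between groups. A change of such a ratio shows that 2 probes did not change alike. It depends on no scaling constant of the array. In all 21 the 3 HAY calves lay below the 4 CON calves. The difference ran from -5.78 for B4GALT5 to -3.81 for ST3GAL3 (exact two-sided permutation p = 0.0286 for each, the smallest that 35 splits allow, unadjusted over the 21 pairs). The narrowest gap between groups was 1.93 log2 units, against B4GALT6. Against B4GALNT3, which draws on the same donor, the log2 ratio averaged -3.85 ± 0.28 over the forage calves (SD, n = 3) and 1.69 ± 0.40 over the controls (SD, n = 4). Against B4GALT1, whose values were also lower in HAY, these averages were -3.18 ± 0.38 and 0.78 ± 0.51. Against FUT2 they were -4.68 ± 0.53 and 0.40 ± 0.49. The ratios follow largely from the B4GALNT2 difference itself, since the partners' own differences lay between -0.999 and 0.97. All 21 tests reuse the same B4GALNT2 values, so their outcome was nearly fixed beforehand. They are not separate support and say nothing about competition between enzymes.

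**Figure D3:**
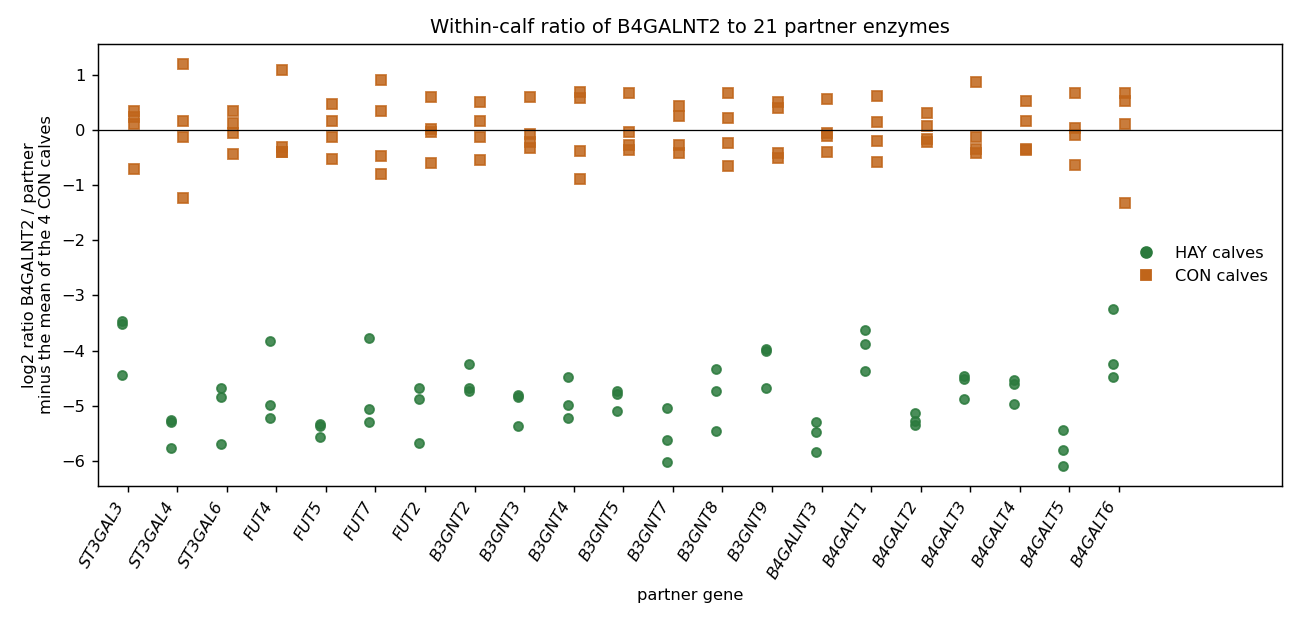
Log2 ratio of B4GALNT2 to each of 21 partner enzymes in the same calf, drawn relative to the mean of the 4 CON calves (vertical axis, log2 units); circles are HAY calves and squares CON calves. The HAY calves lie below the CON calves for all 21, with the narrowest gap, 1.93, for B4GALT6.

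The sialyltransferases that act elsewhere gave 1 higher and 1 lower gene. ST8SIA5, which adds further sialic acids to gangliosides, mainly in nerve tissue, was at -6.24, -6.32 and -6.19 in HAY calves 9, 10 and 13 and at -7.01, -7.32, -7.47 and -6.95 in CON calves 8, 11, 12 and 14. All HAY values exceeded the CON values (difference 0.94, SE 0.16, limma adjusted p = 0.164), but only 2 of 4 CON arrays were above background. With normexp the difference was 0.097 and its unadjusted p by limma 0.332. The normexp offset shrinks differences of signals this faint by construction. ST8SIA1, the ganglioside GD3 synthase, was at -5.68, -6.73 and -6.54 in HAY calves 9, 10 and 13 and at -4.52, -5.58, -5.32 and -6.08 in CON calves 8, 11, 12 and 14. HAY calf 9 lay inside the control range (difference -0.94, SE 0.40, limma adjusted p = 0.354). ST8SIA4, a polysialyltransferase of neural cell adhesion molecule, differed by 0.61 (SE 0.33). ST8SIA2, ST8SIA3 and ST8SIA6 were not tested. ST8SIA3 was dim on all HAY arrays and above background on 2 of 4 CON arrays. Its groups overlapped, with CON calf 14 (-8.27) below every HAY calf.

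Of the ST6GALNAC enzymes, which sialylate the GalNAc of O-glycans and gangliosides, ST6GALNAC4 differed by -0.43 (SE 0.19, unadjusted p by limma 0.0520). ST6GALNAC2 and ST6GALNAC6 differed by 0.18 and 0.09. ST6GALNAC1, which makes the sialyl-Tn structure of mucins, and ST6GALNAC5 were dim on all 7 arrays.

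O-glycan synthesis starts with the GALNT enzymes, which draw on the same UDP-GalNAc as B4GALNT2. Of 19 with a GALNT name on the array, 13 were tested, 8 with higher and 5 with lower values in HAY and a median difference of 0.11. WBSCR17, now GALNT17, is not among them. GALNT6 was the 1 member past the unadjusted threshold. It was at -5.46, -5.83 and -5.09 in HAY calves 9, 10 and 13 and at -4.77, -4.32, -4.14 and -3.06 in CON calves 8, 11, 12 and 14. With no overlap between groups, HAY was 2.61-fold lower (difference -1.38, SE 0.40, limma adjusted p = 0.256), and 18 of 18 alternatives kept an unadjusted p under 0.05. CON calf 14 was the highest, and without it the difference was -1.04. With normexp it was -0.83.

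GALNT8 and GALNTL1 had differences of similar size, each with 1 control calf far above the others. GALNT8 differed by -1.39 (SE 0.80), with CON calf 14 at -2.99 and the other CON calves between -6.38 and -4.54. GALNTL1 differed by -1.13 (SE 0.89), with CON calf 8 at -1.69 and the other CON calves between -5.24 and -4.49. The widely expressed starters had small differences: GALNT1 of 0.32, GALNT2 of 0.11, GALNT3 of 0.07, GALNT11 of 0.38 and GALNT12 of 0.16. GALNT7, GALNT10 and GALNT14 differed by 0.28, 0.17 and 0.15, and GALNTL2 and GALNTL4 by -0.34 and -0.21. GALNT4, GALNT13, GALNTL5 and GALNTL6 were dim on all 7 arrays, GALNT5 was above background on 1 CON array and GALNT9 on 1 HAY array.

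Downstream, GCNT3, which branches mucin O-glycans to core 2 and core 4, was at 2.29, 2.26 and 2.84 in HAY calves 9, 10 and 13 and at 1.54, 2.01, 2.20 and 1.43 in CON calves 8, 11, 12 and 14. The groups did not overlap, with CON calf 12 just below HAY calf 10 (difference 0.66, SE 0.25, limma adjusted p = 0.313). GCNT1, the leukocyte core 2 enzyme, differed by -0.92 (SE 0.58) and was above background on 2 of 3 HAY arrays. B3GNT6, the core 3 enzyme, varied widely within both groups, from -2.35 to -0.07 in HAY and from -2.27 to -0.39 in CON (difference -0.18, SE 0.62). GCNT4 was dim on all 7 arrays.

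The N-glycan branching enzymes differed little between groups. The 7 tested lay between -0.32 and 0.47, and none passed the unadjusted threshold. FUT8, which adds the core fucose, differed by -0.32 (SE 0.22), MGAT4A by -0.31 (SE 0.26), MGAT1, which opens the path to complex chains, by 0.07 (SE 0.15), MGAT5 by 0.10 (SE 0.25), MGAT4B by 0.15 (SE 0.13) and MGAT5B by 0.16 (SE 0.14). MGAT3, which adds the bisecting sugar, differed by 0.47 (SE 0.26) and was above background on 2 of 3 HAY and 3 of 4 CON arrays. MGAT4C was dim on all 7 arrays.

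Genes outside the set that supply, transport or remove these sugars, or carry them, gave 5 of 34 with an unadjusted p under 0.05, against 14.0% of all genes. UAP1, which makes UDP-GlcNAc and UDP-GalNAc, differed by -0.52 (SE 0.18, limma adjusted p = 0.290). GMDS, the first enzyme from GDP-mannose to GDP-fucose, differed by 0.74 (SE 0.24), and NANP, the phosphatase of sialic acid synthesis, by 0.54 (SE 0.14). The sialidase NEU4 differed by 0.47 (SE 0.17) and SLC35D1, a Golgi and endoplasmic reticulum carrier of UDP-sugars, by 1.16 (SE 0.45). Limma adjusted p ranged from 0.235 to 0.326 for these 5. The sialic acid carrier SLC35A1 differed by 0.0050 (SE 0.16). The membrane mucin MUC1 differed by -0.69 (SE 0.33). CON calf 8 stood at 1.35 and the other CON calves between 0.08 and 0.36, the lowest just above the highest HAY calf at 0.06. Of the 4 mucins tested, the 3 others had higher values in HAY. MUC13 differed by 1.01 (SE 0.44), MUC15 by 0.29 (SE 0.16) and MUC16 by 0.26 (SE 0.27). MUC13 was above background on only 2 HAY and 2 CON arrays.

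The genes next to B4GALNT2 that could be tested differed by between -0.73 and 0.17. On chromosome 19 the nearest array genes on one side were GNGT2 at 26.8 kb, ABI3 at 40.9 kb, PHOSPHO1 at 41.8 kb and ZNF652 at 94.4 kb. Their differences were -0.31 (SE 0.18), -0.73 (SE 0.29), 0.17 (SE 0.22) and 0.04 (SE 0.21). On the other side IGF2BP1 at 110.4 kb and GIP at 181 kb were too dim to test, and SNF8 at 203.7 kb and UBE2Z at 204.4 kb differed by 0.00041 (SE 0.15) and -0.13 (SE 0.12). ABI3, an actin regulator of leukocytes, was the 1 neighbour with an unadjusted p under 0.05 (limma adjusted p = 0.335).

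**Figure D4:**
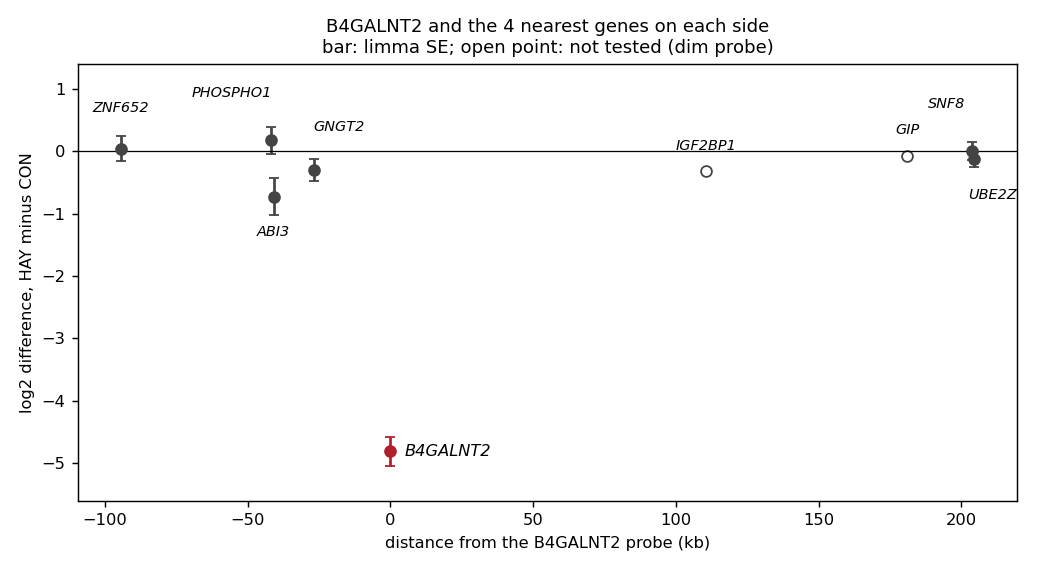
Log2 difference HAY minus CON (vertical axis, bars are limma SE) against distance from the B4GALNT2 probe in kb for it and the 4 nearest array genes on each side; open points were too dim to test. B4GALNT2 stands at -4.81 and its neighbours between -0.73 and 0.17.

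Samples also differed in how much stromal RNA they held. All 11 keratinocyte markers on the array were tested, KRT5 and KRT14 among them, 8 with higher and 3 with lower values in HAY (median 0.13), with 1 marker apart from the rest. KRT4 was dim on all 3 HAY arrays and above background on all 4 CON arrays, at least 3.63-fold lower in HAY (limma adjusted p = 0.163), and its part in the results was not tested. All 12 fibroblast and all 9 smooth muscle markers tested had lower values in HAY, with medians of -1.55 and -1.33. So had 10 of 10 endothelial markers (median -0.78) and 8 of 9 myeloid markers (median -1.16). Lymphocyte markers ran 6 higher and 3 lower (median 0.33), and of 5 markers of mucous cells 1 was bright enough to test (0.42) and 2 were dim throughout. A stromal score was formed from the fibroblast and smooth muscle lists: each marker was centred on its average over all calves, each list averaged per calf, and both averages combined with equal weight. It came to 0.06, -1.01 and -1.45 in HAY calves 9, 10 and 13. It was 1.58, 0.57, 0.30 and -0.05 in CON calves 8, 11, 12 and 14. In bulk RNA, fewer cells of a type and less RNA per cell cannot be told apart.

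HAY calf 9 and CON calf 14 had scores of 0.06 and -0.05, with fibroblast scores of 0.22 and -0.19 and smooth muscle scores of -0.11 and 0.08. They were not matched throughout: endothelial scores were 0.25 and -0.01, myeloid scores -0.25 and 0.19, and mucous scores, from 1 marker, 0.14 and -0.40. Myeloid scores did not overlap between groups (-0.71 to -0.25 in HAY, 0.19 to 0.64 in CON). The B4GALNT2 signals of calves 9 and 14 were 23.9 and 600.4 units, 1 calf of each group, and no cause was tested. With the score as a covariate B4GALNT2 differed by -4.94 (SE 0.36, limma adjusted p = 0.0480), GALNT6 by -2.16 (SE 0.48), B4GALT1 by -1.11 (SE 0.24), ST8SIA5 by 0.98 (SE 0.25) and B4GALNT3 by 0.50 (SE 0.18). Differences of other genes shrank and lost an unadjusted p under 0.05 in that fit: ST3GAL2 to -0.08 (SE 0.22), ST3GAL3 to -0.17 (SE 0.31), B3GNT7 to 0.07 (SE 0.28), GCNT3 to 0.41 (SE 0.36) and B4GALT5 to 0.73 (SE 0.38). ST8SIA1 stood at 0.14 (SE 0.29). ST3GAL2, ST3GAL3, B3GNT7, GCNT3 and ST8SIA1 also lost it without calves 8 and 13, the highest and the lowest in score. Such losses were common on the array. Over all 12570 genes, calls at that threshold fell from 1755 to 951 with the covariate and to 749 without calves 8 and 13. The score was mostly lower in HAY, so in the covariate fit score and group cannot be fully told apart.

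**Figure D5:**
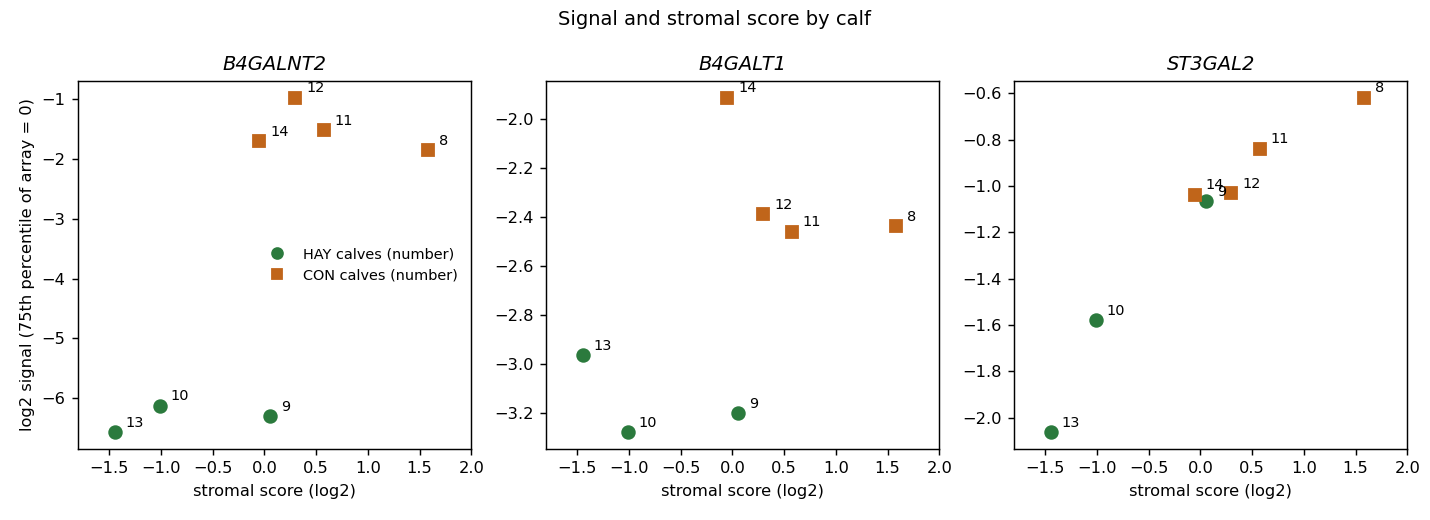
Log2 signal (vertical axis) against stromal score (horizontal axis) by calf for 3 genes chosen after their values were seen; circles are HAY and squares CON. At scores near 0, HAY calf 9 and CON calf 14 differ in B4GALNT2 (-6.30 and -1.71) and in B4GALT1 (-3.20 and -1.91) and not visibly in ST3GAL2 (-1.07 and -1.04). They are 1 calf per group, and no cause was tested.

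Single calves decided several of the smaller differences. An unadjusted p under 0.05 was lost for ST3GAL2 and ST3GAL3 without HAY calf 10 (-0.68 and -0.95) or HAY calf 13 (-0.44 and -0.71), and for ST3GAL2 also without CON calf 8 (-0.60) or CON calf 11 (-0.67). GCNT3 lost it without HAY calf 13 (0.48), CON calf 8 (0.58) or CON calf 14 (0.54). B3GNT7 lost it without HAY calf 10 (0.62), HAY calf 13 (0.64), CON calf 8 (0.56) or CON calf 12 (0.79). With the slide column as a block, GCNT3 (0.58), B3GNT7 (0.56) and ST8SIA1 (-0.66) also lost it. With normexp B3GNT7 (0.35) and ST8SIA1 (-0.43) lost it, and ST3GAL3 stood at -0.53. ST8SIA1 kept it in 8 of 18 alternatives. Without CON calf 11 ST3GAL4 differed by 1.04 and its unadjusted p by limma was 0.00146. Without HAY calf 13 GCNT1 differed by -0.25, B3GNT9 by -0.35, FUT8 by -0.066 and FUT2 by 0.084, and without CON calf 14 GALNT8 differed by -0.74. All HAY arrays were in row 1 of the slide and all CON arrays in row 2, so an effect of the row and one of forage cannot be told apart.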

How the data were processed

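Total RNA (500 ng per calf, Cy3 label, per the labels' protocols) was read on 7 arrays of 1 slide. The deposited scanner files hold spot intensity, which the authors' scanner software subtracted for background and detrended, per the file headers, without scaling across arrays. Agilent Feature Extraction 9.5 is named in the submitters' processing notes. A deposited table of the whole series gives log2 values. Set against the scanner values, its columns equalled the log2 signal minus each array's 75th percentile (SD of the difference at most 0.000352), which settled scale, centring and direction. Medians of its columns were -3.14, -3.16 and -3.23 for HAY calves 9, 10 and 13. They were -3.11, -3.11, -3.11 and -3.13 for CON calves 8, 11, 12 and 14.

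Control spots and outlier spots were left out, repeated spots averaged, and the 75th percentile of each array subtracted. A probe was kept if at least 3 of 7 arrays had it well above background, and the brightest probe stood for a gene. Between 81.5 and 84.5% of probes per array were well above background, and the number of arrays limits the precision. Groups were compared with limma 3.58.1 in R 4.3.3 (lmFit and eBayes, Benjamini-Hochberg adjustment over all tested genes, threshold 0.05). The fit was tested on simulated data. Within-calf ratios were compared by an exact permutation test. A bound ("at least") sets the brighter group's mean against a mean in which each array of the dim group takes the lowest signal well above background there, or the probe's own where that was higher. It is given only where every array of the brighter group was well above background. Each calf is 1 replicate. The labels do not say whether calves shared pens or litters. The genes, lists and marker sets were chosen with earlier results of these data known. Named were B4GALNT2, genes with an unadjusted p under 0.05, those above background in 1 group only, its 21 partners, the extremes of each role group, the neighbours and supply genes with an unadjusted p under 0.05; other genes are named to account for every member. SLC35A1 and the mucins were named outside that rule. RefSeq names came from assembly ARS-UCD2.0, used for names only. Alternatives were normexp (offset of 50 units), median centring, quantile normalization, the deposited table and other filters. Also used were the slide column as a block, the stromal score as a covariate, mean probes, updated symbols and leaving out calves. For a gene with 1 probe, other filters, mean probes and updated symbols leave the difference unchanged, and the deposited table nearly so. The slide column as a block gives B4GALNT2 the same difference as leaving out CON calf 8, the 1 array in column 1.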

Additional observations from a re-analysis of the deposited data

Results flagged for a closer look

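Of 60 control groups of 4 calves examined, 7 held a calf whose gap to the nearest other, divided by the range of the 4 values, was larger than Dixon's 95% critical value (0.829), where chance gives about 1 in 20. All 60 genes were read on the same 4 arrays, and the share over all tested genes was not determined. The count is therefore not read as a trait of the set. CON calf 14 stood apart in 4 of the 7 genes. It was highest for B3GALNT2 at 0.95 (others 0.00 to 0.07), B3GNT8 at -0.49 (others -1.17 to -1.06) and B4GALT1 at -1.91 (others -2.46 to -2.39), and lowest for MGAT5 at -5.57 (others -4.78 to -4.68). CON calf 8 was highest for GALNTL4 at 1.09 (others 0.63 to 0.65) and lowest for B3GALT4 at -2.57 (others -2.06 to -1.97). CON calf 11 was highest for B4GALT5 at 0.22 (others -0.67 to -0.56).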

How the results depend on the processing

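B4GALNT2 kept its direction and call in all 18 alternatives, with leave-one-out differences from -4.92 to -4.63. Its ratios to 21 of 21 partners did not overlap with normexp, quantile normalization or the deposited table; leaving out calves or centring arrays cannot bring an overlap about. The other 10 genes with an unadjusted p under 0.05 rest on that threshold, which 14.0% of all genes passed. With 1 calf left out, between 3 and 8 genes of the set were higher and between 3 and 9 lower at that threshold, with B4GALNT2 alone past the adjusted one each time and a median from 0.018 to 0.11. Over all 12570 genes the same fits gave 379 to 1148 higher and 496 to 1196 lower, with a median from 0.015 to 0.048. The median of the set was -0.052 with normexp, 0.13 with median centring, 0.011 with no filter on dim probes, 0.034 with the stromal covariate and 0.029 without calves 8 and 13. Over all genes the median in these fits was -0.029, 0.097, 0.021, 0.0073 and 0.022, so part of the shift was shared by the whole array. With normexp 26 of 60 had higher values, against 34. Over all genes the calls at an unadjusted p under 0.05 were 854 higher and 901 lower, 1240 and 774 under median centring, and 665 and 1145 once slide column entered as a block. The adjusted count over all genes rose from 1 to 21 when CON calf 14 was left out, to 7 when HAY calf 9 was, to 5 when calves 8 and 13 were, to 4 when CON calf 8 was or with quantile normalization, and to 2 when HAY calf 13 was or with the slide column. Sign changes were as follows. With normexp B3GNT4 stood at -0.020, B3GNT5 at -0.066, B3GNT8 at -0.052 and MGAT3 at -0.021. With the slide column as a block FUT7 stood at 0.047 and B3GNT8 at -0.0027. With the stromal covariate ST8SIA1 was 0.14, ST3GAL6 -0.38, FUT4 0.24, FUT7 0.49, FUT2 -0.31, B3GNT3 -0.012, B3GNT8 -0.28, B3GNT9 0.063, B4GALT6 0.25, MGAT3 -0.064, GCNT1 0.50 and ST6GALNAC2 -0.12. Without calves 8 and 13 ST3GAL6 was -0.16, FUT2 -0.020 and B3GNT8 -0.19. With 1 calf left out FUT4 ran from -0.41 to 0.19, FUT7 from -0.29 to 0.27, B3GNT4 from -0.11 to 0.27, B3GNT8 from -0.15 to 0.19 and B4GALT4 from -0.23 to 0.0021. The cause of these changes was not tested. Of 607 values of the 34 other named genes that were tested, 518 kept direction and side. No paired analysis was possible because calf numbers differ between the groups and pair no animals. For the 23 untested genes, signal over background is the limit.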
